A study of Rattus norvegicus with 6 samples.

Results

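The enzymes described here are 8 genes through which the small intestine uses glutamine, makes citrulline and arginine, and starts polyamine synthesis. They are *Cps1*, *Otc*, *Ass1*, *Asl*, *Oat*, *Arg2*, *Glud1* and *Odc1*. All probes whose RefSeq accession belongs to one of them were taken, which gave 12 probes, out of 41012 different probes for 13837 gene symbols on the array. Every member had at least 1 probe, and all 12 probes were well above background on all 6 arrays, so that none was lost to the filter on dim probes.

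RNA came from the jejunum of male Sprague-Dawley rats, 6 weeks old and weighing 200 ± 20 g, and was hybridized to 1-colour Agilent rat arrays. The S3d group spent 2 h a day on 3 days at 35°C while being shaken at 0.1 g, and the control group was kept at 25°C and 60% humidity without this treatment. No genetic change is named for either group, and all rats were put under ether before the tissue was taken. Each group has 3 arrays, and the labels describe each sample as RNA mixed from 3 rats and give 10 rats per group, so that the spread within a group is the spread between pools. The labels name the jejunum as a tissue, in which epithelium, muscle and immune cells are mixed.

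Epithelial cells of the small intestine take up glutamine as fuel and release part of its nitrogen as citrulline, which the kidney turns into arginine. Glutamine is first split to glutamate. Glutamate can be deaminated by GLUD1 or reduced to pyrroline-5-carboxylate, from which OAT makes ornithine. CPS1 and OTC join ammonia to ornithine and give citrulline, while ASS1 and ASL carry citrulline on to arginine. Arginase returns ornithine, and ODC1 turns ornithine into putrescine, the first polyamine, which dividing crypt cells need.

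The group labels of these arrays are in doubt. The scanner files and the normalized table, both deposited, contradict each other: all 6 columns of the table matched a scanner file carrying the opposite group label and an equal replicate number (Spearman's rho 1.0), and matched their own label less closely (rho between 0.9425 and 0.95256). No sample was reassigned. Groups here follow the scanner files and are written as arrays labelled S3d and arrays labelled control. On all 12 member probes the sign in the normalized table was opposite to that of the scanner values under quantile normalization. The files do not settle which of the 2 sources carries the right labels, so the direction of the differences with respect to stress is open. Their sizes are those of these arrays under the processing named, and several changed with it.

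The arrays also differed as a whole. The 75th percentile of the signal ranged from 414.8 to 430.0 in the arrays labelled control, and from 1457.7 to 1558.3 in those labelled S3d. Each group had a slide of its own, with 450 days between the scans, so slide, scan and group cannot be told apart. The array labelled S3d replicate 1 stood apart from the other 5 in the markers of pancreatic acinar cells, the cells that secrete digestive enzymes. The summed level of 8 such markers was 1900 on that array, in units of the array's 75th percentile, but 1.81 and 3.12 on the other arrays labelled S3d and between 1.11 and 1.53 on the arrays labelled control. All 8 markers were highest on that array, by between 7.91 and 14.09 on the log2 scale over the next array. Results were therefore also computed without it.

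Enterocyte markers were strongly detected: all 8, among them *Fabp1*, *Fabp2*, *Alpi* and *Apoa4*, were well above background on every array. Their summed level was between 2910 and 3270 on the arrays labelled control and between 1290 and 1330 among the arrays labelled S3d, in units of the 75th percentile. Of the 8 markers, 6 were lower and 1 was higher on the arrays labelled S3d. With quantile normalization 1 was lower and 3 were higher, so that the direction of this list rests on the scaling. Of 6 markers of proliferating crypt cells, 5 were higher and 1 was lower. These counts were 4 and 0 with quantile normalization and 2 and 1 with median centring. Of 7 leukocyte markers, 6 were lower and 1 was higher, and with quantile normalization 4 were lower and 1 was higher. With another background correction (normexp), 1 marker was called in each of these lists. Among all named genes 36.1% were called higher and 37.4% lower with the 75th percentile. The 3 goblet cell markers had a summed level of 787 to 842 in the arrays labelled control but of 268 to 286 in those labelled S3d, with 2 lower and 1 not called, and of 5 smooth muscle markers 2 were lower and 1 was higher. With quantile normalization 2 goblet markers were lower and 1 was higher, and smooth muscle markers were split 2 to 2. Liver also makes *Cps1*, *Otc* and *Arg1* in quantity. Of 7 hepatocyte markers, *Alb*, *Apoh*, *Cyp2e1* and *Tat* were not well above background on all arrays of either group, while *Fgb* (-3.70), *Ttr* (-0.74) and *Serpina1* (0.83) were above it on all 6 arrays and were called. The hepatocyte markers summed to between 0.461 and 0.864 over the 6 arrays. The part of cell mixture in the results below was not tested, and in whole tissue fewer cells of a type and less RNA per cell cannot be told apart.

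Levels below are log2 signals relative to the 75th percentile of the same array, so that 0 is the level which 75% of the spots stay below. A fold change is the mean of the arrays labelled S3d minus the mean of the arrays labelled control on this log2 scale. For 9 of the 12 member probes its sign is opposite to that in the normalized table read by its own labels. Differences were tested with limma, and a probe was called at a Benjamini-Hochberg adjusted p under 0.05 over all 31367 tested probes. Of these, 74.0% were called, and of the 11489 named genes, each stood for by its brightest probe, 73.5% were called, with 36.1% higher and 37.4% lower. Against this background 3 of the 8 members were called, *Cps1*, *Asl* and *Glud1*, all of them higher on the arrays labelled S3d, and none was called lower. The groups did not overlap in 3 of the 8 members, compared with 78.8% of the named genes. The median log2 fold change was 0.12 over the members and 0.00 over the named genes. Without S3d replicate 1, 3 members were again called higher and none lower, and their median was 0.06.

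**Figure D1:**
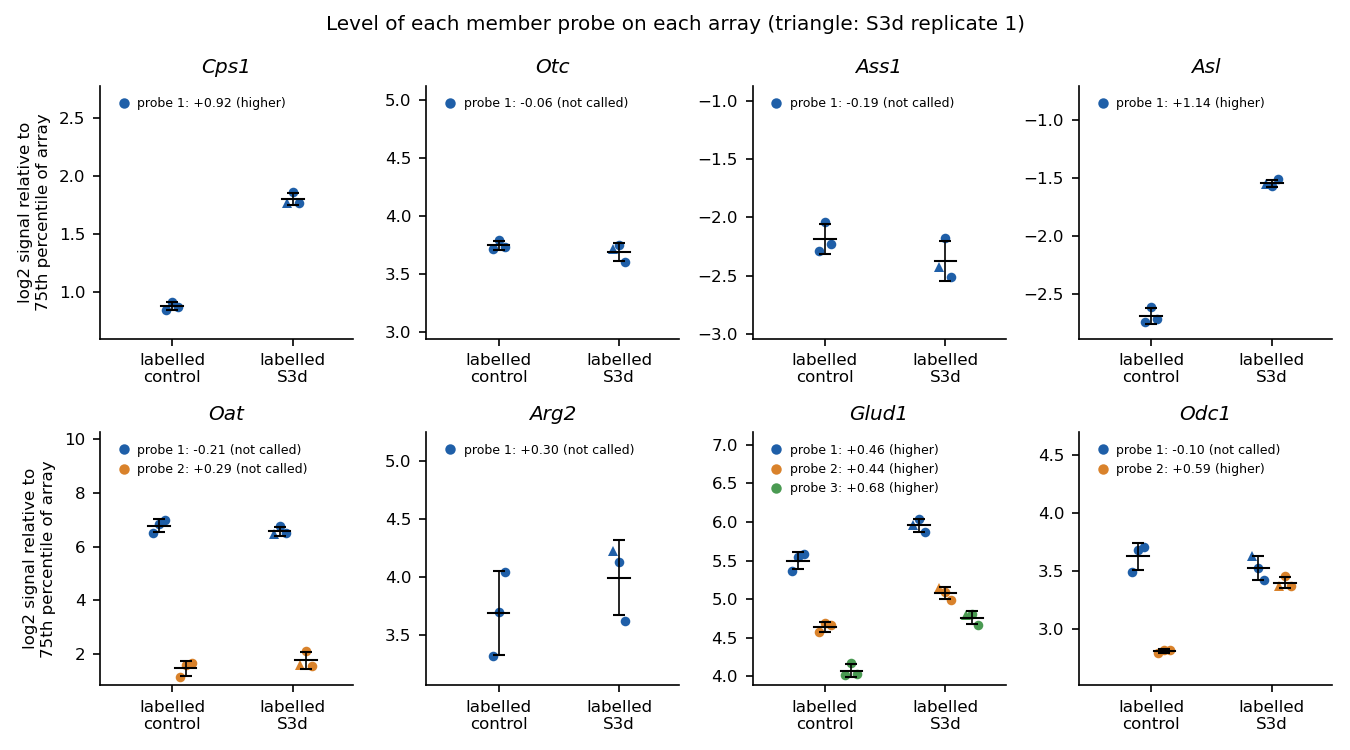
Level of each member probe on each array, as log2 signal relative to the 75th percentile of the array (vertical axis, scaled for each gene), for the arrays labelled control and S3d; points are arrays, lines are the mean and SD of 3 arrays, and the legend gives each probe's log2 fold change. The groups are apart for *Cps1*, *Asl*, all 3 *Glud1* probes and probe 2 of *Odc1*, and overlap for the other probes.

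*Cps1* encodes carbamoyl phosphate synthetase 1, the mitochondrial enzyme that fixes ammonia for citrulline synthesis. Its probe (A_44_P346483) stood at 0.85, 0.92 and 0.87 on the arrays labelled control and at 1.77, 1.86 and 1.77 on the arrays labelled S3d. All 3 arrays labelled S3d lay above all 3 labelled control, and the SDs were 0.03 and 0.05 (n = 3 each). The log2 fold change was 0.92 ± 0.061 (SE, n = 3 per group), a 1.89-fold difference, with an adjusted p of 5.2e-05 in limma. *Cps1* was the only member that was called under quantile normalization, median centring and no scaling and also under another background correction (normexp), where its log2 fold change was 1.02 with an adjusted p of 0.04 in limma.

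*Otc* encodes ornithine transcarbamylase, which uses the product of CPS1 to form citrulline in the same compartment. Its levels were 3.72, 3.79 and 3.73 among the arrays labelled control and 3.72, 3.75 and 3.60 on the arrays labelled S3d (A_44_P508489). The groups overlapped, and the log2 fold change was -0.06 ± 0.069 (limma, adjusted p = 0.48). Its direction followed the scaling: it was 0.29 with quantile normalization and -0.26 with median centring, each called with an adjusted p of 0.014 in limma. The pair of neighbouring enzymes was also compared within each array. There, *Otc* relative to *Cps1* was lower by between 0.91 and 1.04 on the log2 scale on the arrays labelled S3d than on average on the arrays labelled control, where this difference varied by 0.01 (SD, n = 3). A scaling of a whole array by 1 factor cannot alter such a difference, which was -0.97 here, -0.69 with quantile normalization and -0.71 with normexp. The exact two-sided permutation p was 0.1, the smallest that 3 arrays against 3 allow, and 0.143 after adjustment over the 10 such differences computed. Other differences among the 10 moved with the processing. *Arg2* relative to *Asl* shifted by -0.84 here but by 1.04 with normexp. The dimmer *Oat* probe relative to the brighter shifted by 0.51 here but by -0.20 with quantile normalization. *Oat* relative to *Arg2* shifted by -0.52 here and by -0.07 with quantile normalization.

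*Ass1* encodes argininosuccinate synthase, which joins citrulline to aspartate. Its levels were -2.29, -2.04 and -2.23 among the arrays labelled control and -2.43, -2.18 and -2.51 on the arrays labelled S3d (A_44_P447373). The groups overlapped, and the log2 fold change was -0.19 ± 0.116 (limma, adjusted p = 0.18). It was negative under quantile normalization (-0.33), median centring (-0.39) and normexp (-0.87) too, and was called lower under the first of these and median centring, with adjusted p-values of 0.044 and 0.018 in limma.

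*Asl* encodes argininosuccinate lyase, which releases arginine in the step after ASS1. Its levels were -2.74, -2.61 and -2.71 among the arrays labelled control and -1.55, -1.57 and -1.51 on the arrays labelled S3d (A_44_P315714). All arrays labelled S3d were higher, the log2 fold change was 1.14 ± 0.065, a 2.21-fold difference, and the adjusted p was 3.1e-05 in limma. This was the largest difference of the members with the 75th percentile, while with quantile normalization *Asl* (1.01) came after *Glud1* (1.09). The *Asl* probe lay low in the signal range, at a raw signal of 62.0 on the array labelled control replicate 1, and its call was lost with normexp, where the log2 fold change was -0.17 (limma, adjusted p = 0.8). *Asl* relative to *Ass1* was higher by between 1.11 and 1.5 within the arrays labelled S3d, against an SD of 0.06 on the arrays labelled control. The mean of this shift was 1.33, with 1.34 under quantile normalization and 0.71 under normexp (exact permutation p = 0.1, adjusted 0.143).

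The first bases around the annotated start of the 3 called members and of *Otc*, which was not called beside its partner *Cps1*, are shown because these genes moved together or apart. Each stretch of 300 bases spans the start site, most of it upstream, on the gene's own strand, from RefSeq on the rat assembly GRCr8. RefSeq promoters were at hand for 7 of the 8 members, all but *Arg2*. Capitals mark matches on either strand to 6 motifs. These are the TATA box with the letters TATAAA, the GATA site with AGATAA, a motif of the nuclear receptor HNF4 with CAAAGTCCA, the GC box with GGGCGG, the CCAAT box by that name, and the E-box with CACGTG.
Cps1, chr9:76063613-76063912, + strand: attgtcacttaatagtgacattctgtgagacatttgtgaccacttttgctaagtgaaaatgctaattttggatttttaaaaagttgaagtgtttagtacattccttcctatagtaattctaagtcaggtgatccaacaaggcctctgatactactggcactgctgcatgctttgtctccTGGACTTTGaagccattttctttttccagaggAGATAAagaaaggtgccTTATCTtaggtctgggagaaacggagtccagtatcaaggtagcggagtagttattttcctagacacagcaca
Otc, chrX:15202424-15202723, - strand: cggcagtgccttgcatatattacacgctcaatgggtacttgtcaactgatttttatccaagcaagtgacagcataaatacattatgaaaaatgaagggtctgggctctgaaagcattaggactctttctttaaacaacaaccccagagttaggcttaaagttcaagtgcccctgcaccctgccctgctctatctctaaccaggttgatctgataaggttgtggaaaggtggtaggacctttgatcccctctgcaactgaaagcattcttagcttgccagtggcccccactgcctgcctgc
Asl, chr12:32295658-32295957, + strand: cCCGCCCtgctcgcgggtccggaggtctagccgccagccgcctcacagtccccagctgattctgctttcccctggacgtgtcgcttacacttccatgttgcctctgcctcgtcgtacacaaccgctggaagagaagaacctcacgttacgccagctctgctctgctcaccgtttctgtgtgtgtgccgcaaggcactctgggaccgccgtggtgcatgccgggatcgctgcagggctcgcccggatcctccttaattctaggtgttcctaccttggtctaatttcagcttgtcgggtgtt
Glud1, chr16:9646319-9646618, + strand: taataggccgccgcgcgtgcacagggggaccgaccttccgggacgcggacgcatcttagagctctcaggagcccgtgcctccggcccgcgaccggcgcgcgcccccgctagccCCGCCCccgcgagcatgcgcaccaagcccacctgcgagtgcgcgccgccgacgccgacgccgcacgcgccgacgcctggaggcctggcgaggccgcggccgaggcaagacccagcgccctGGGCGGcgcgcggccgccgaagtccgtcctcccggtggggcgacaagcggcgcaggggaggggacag

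The 3 called genes do not share a promoter type in these windows. *Cps1* held 39.3% G and C, *Otc* 46.7%, *Asl* 60.3% and *Glud1* 78.0%. The *Cps1* stretch held 2 GATA sites, where 11.6% of all 33469 rat promoters of this length held at least 1, and the HNF4 motif, which 0.391% held. *Glud1* held 2 GC boxes and *Asl* held 1, against a share of 33.1% of promoters with any. The *Otc* stretch held no match to any of the 6 motifs, of which the TATA box was in 14.2% of promoters, the CCAAT box in 37.5% and the E-box in 6.42%. Other members that were not called did hold matches. *Odc1* had 5 GC boxes, *Oat* 2 GC boxes and 2 CCAAT boxes, and *Ass1* 1 TATA box. Such matches describe letters and are no measure of binding.

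*Glud1* encodes glutamate dehydrogenase, which links glutamate to the citric acid cycle and sets ammonia free. It has 3 probes. The brightest (A_43_P14157) stood at 5.37, 5.54 and 5.59 on the arrays labelled control and at 5.96, 6.04 and 5.87 on the arrays labelled S3d. The log2 fold change was 0.46 ± 0.086 (limma, adjusted p = 0.0035). The second probe (A_44_P259908) gave 0.44 ± 0.073 (limma, adjusted p = 0.0021) and the dimmest (A_44_P472500) 0.68 ± 0.079 (limma, adjusted p = 0.00043). The groups did not overlap on any of the 3, and all 3 were called higher under quantile normalization and median centring, between 0.90 and 1.10 and between 0.24 and 0.48. With normexp none was called, at log2 fold changes between 0.84 and 1.10 and adjusted p-values between 0.077 and 0.11 in limma.

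*Oat* encodes ornithine aminotransferase, which connects the proline and glutamate branch to ornithine. It has 2 probes, of very different brightness. The brighter (A_43_P12236) stood at 6.51, 6.85 and 7.0 on the arrays labelled control and at 6.47, 6.75 and 6.49 on the arrays labelled S3d, and the dimmer (A_44_P287250) at 1.13, 1.59 and 1.66 against 1.59, 2.12 and 1.55. Both overlapped between the groups. Their log2 fold changes had opposite signs, -0.21 ± 0.149 and 0.29 ± 0.209, and neither was called (limma, adjusted p = 0.23 and 0.24). The call of the brighter probe changed with the processing: it was called higher with quantile normalization (0.58) and lower with median centring (-0.42), and without control replicate 1 it was called lower as well (-0.35, adjusted p = 0.045 in limma).

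The fold changes of all tested probes also varied with brightness. Over the 7152 tested probes with a mean level below -4 the median log2 fold change was 0.72, and it was -0.94 for the 508 probes above 6, the range of the brighter *Oat* probe. It was -0.50 for the 1215 probes between 4 and 6, where the *Glud1* probes lie, and -0.14 for the 8055 probes between 0 and 4. Quantile normalization brought these medians to between -0.03 and 0.18. *Asl* lies in the range from -4 to 0, where the median was 0.11. The fold changes of *Oat* and *Glud1* thus lay above the median of probes as bright as they are.

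**Figure D2:**
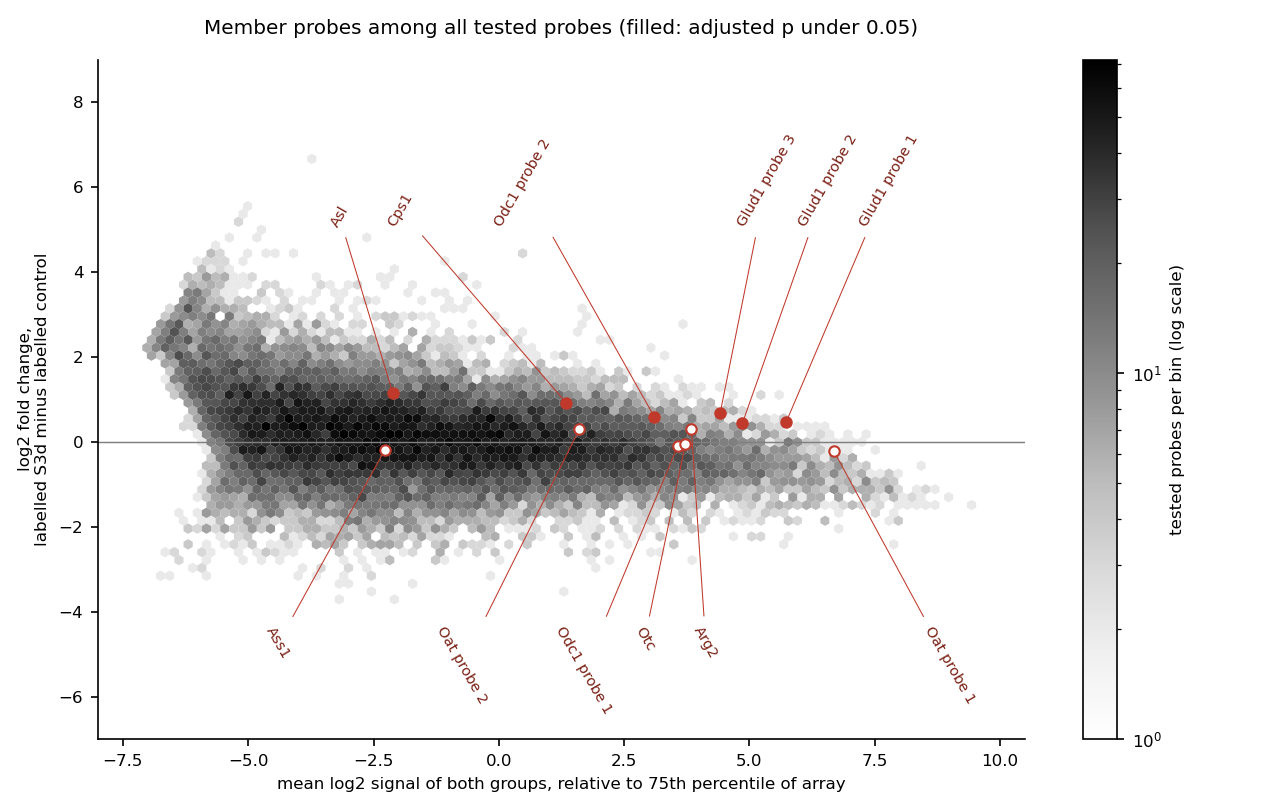
Log2 fold change (vertical axis, arrays labelled S3d minus arrays labelled control) against mean log2 signal relative to the 75th percentile (horizontal axis) for all 31367 tested probes, shaded by the number of probes in each bin, with the 12 member probes in red. The cloud falls with signal, from a median of 0.72 below -4 to -0.94 above 6, and the *Glud1* probes and the brighter *Oat* probe lie above the median of their range of signal.

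*Arg2* encodes the mitochondrial arginase, the form found outside the liver, which splits arginine into ornithine and urea. Its levels were 3.32, 3.70 and 4.04 among the arrays labelled control and 4.22, 4.13 and 3.62 on the arrays labelled S3d (A_44_P296180). It varied more between replicates than any other member, with SDs of 0.36 and 0.33. The groups overlapped, and the log2 fold change of 0.30 ± 0.236 was not called (limma, adjusted p = 0.29). The values with quantile normalization (0.65, adjusted p = 0.053) and normexp (0.88, adjusted p = 0.093) were larger but were not called by limma either.

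*Odc1* encodes ornithine decarboxylase, the enzyme that commits ornithine to polyamines. Its 2 probes disagreed. The brighter (A_43_P14163) stood at 3.49, 3.68 and 3.70 on the arrays labelled control and at 3.63, 3.52 and 3.42 on the arrays labelled S3d. The dimmer (A_44_P202988) stood at 2.79, 2.82 and 2.82 against 3.37, 3.45 and 3.37. The first overlapped between the groups and was not called, with a log2 fold change of -0.10 ± 0.091 (limma, adjusted p = 0.35), whereas the second was apart on every array and was called higher, at 0.59 ± 0.059 (limma, adjusted p = 0.00024). Within an array, the second probe relative to the first was higher by between 0.55 and 0.76 on the arrays labelled S3d, against an SD of 0.10 on the arrays labelled control (exact permutation p = 0.1, adjusted 0.143). The gap was 0.62 with quantile normalization and 0.43 with normexp, and the mean of both probes was called higher (0.24, adjusted p = 0.018 in limma). No direction can therefore be given for the *Odc1* transcript as a whole.

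**Figure D3:**
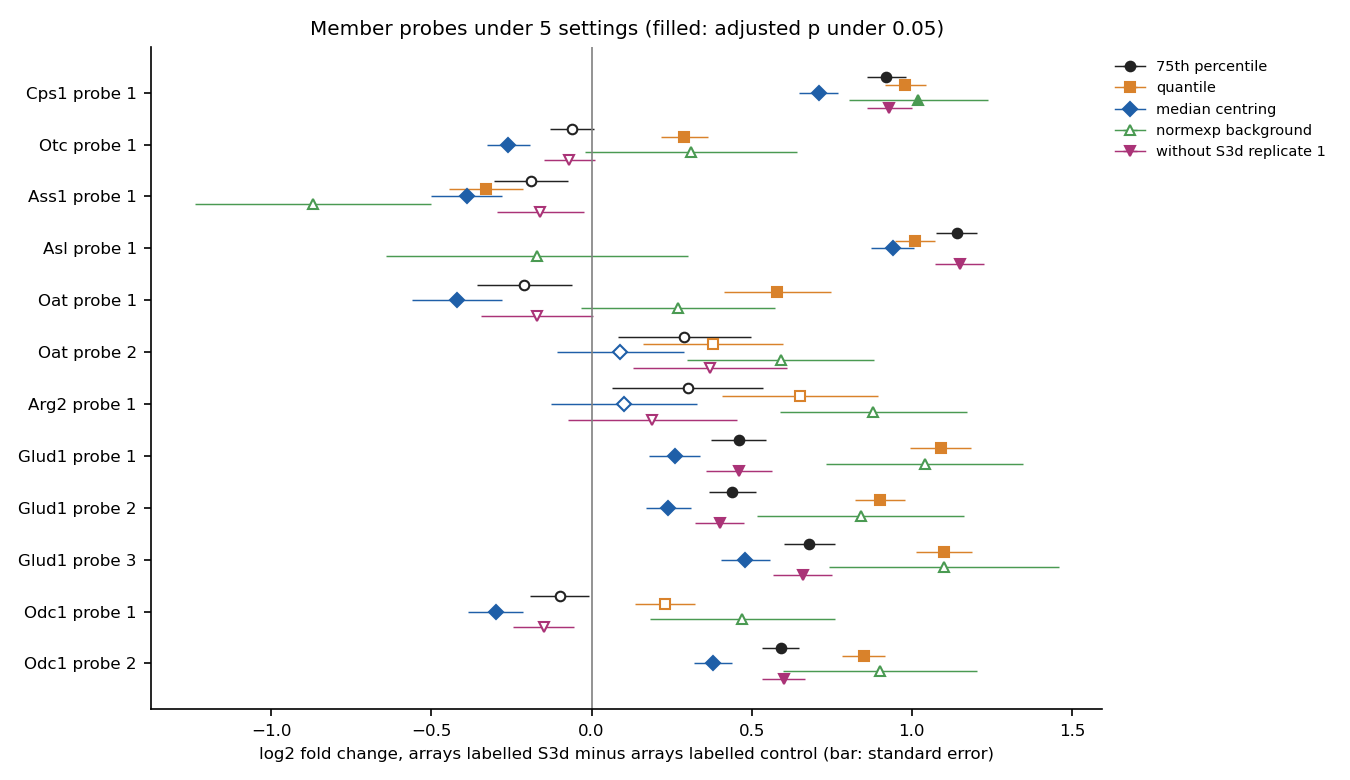
Log2 fold change of each member probe (horizontal axis, arrays labelled S3d minus arrays labelled control, bars are standard errors) under the 75th percentile scaling, quantile normalization, median centring, normexp background correction and without S3d replicate 1; filled symbols have an adjusted p under 0.05. *Cps1* stays between 0.71 and 1.02 and filled throughout, *Asl* falls to -0.17 with normexp, and *Otc*, probe 1 of *Oat* and probe 1 of *Odc1* cross 0.

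Counted over genes, the split of calls moved with the scaling. It was 3 higher and none lower with the 75th percentile, 5 higher and 1 lower with quantile normalization, where 70.0% of named genes were called, and 3 higher and 4 lower with median centring, where 74.3% were called. Without any scaling all 8 were higher, 96.5% of named genes were called, and the median over the tested probes was 1.93. With normexp only *Cps1* was called, and 8.48% of named genes. Leaving out S3d replicate 1, the array with the acinar signal, changed no call of a member: *Cps1* gave 0.93, *Asl* 1.15 and the brightest *Glud1* probe 0.46. Median centring shifted the median of all tested probes to -0.12 and normexp to -0.68, compared with 0.08 in the values above.

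The genes whose brightest probe followed a member most closely over the 6 arrays were found among 10395 named genes well above background on all of them. For *Cps1* they were *Lmo2* (Pearson's r = 0.9998) and *Liph* (0.9996), and for *Asl* they were *Fam117a* (0.9999) and *Slc30a5* (0.9997). *Dnajb12* (0.9981) and *Mcf2l* (0.998) were nearest to *Glud1*. Such profiles, with the groups apart and little spread within them, were common: 2109 genes exceeded 0.95 with *Cps1*, 2078 with *Asl* and 854 with *Glud1*. The members without such a gap had few close profiles: 5 genes exceeded 0.95 with *Otc*, led by *St3gal5* (0.9954) and *Snx16* (0.9757), and 3 with *Ass1*, led by *Klhdc1* (0.9768) and *Chrm4* (0.954). *Oat* was nearest to *St6gal1* (0.9776) and *Ms4a10* (0.9678), *Arg2* to *Aldh1l1* (0.9921) and *Or4f7c* (0.9919), and *Odc1* to *Rgs11* (0.991) and *Gsto2* (0.979). With 6 arrays that share slide and group, they are a description only.

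The members are set in a wider pathway list of 42 genes, of which 36 had a named probe and 35 were tested. On their brightest probes 13 were higher and 13 were lower on the arrays labelled S3d, against 36.1% and 37.4% of all named genes, and 9 were not called. Their median log2 fold change was -0.05. The split was 13 to 10 with quantile normalization, 11 to 17 with median centring and 12 to 14 without S3d replicate 1. With normexp 0 were called higher and 2 lower, where 8.48% of named genes were called. Each call of a brightest probe as higher in what follows was therefore lost with normexp.

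Of the 7 genes of glutamine and glutamate handling, 3 were higher, 3 were lower and 1 was not called. *Glul*, glutamine synthetase, stood at -1.38, -1.44 and -1.34 on the arrays labelled control and at 0.00, 0.23 and 0.21 on the arrays labelled S3d. Its groups were far apart, with a log2 fold change of 1.53 ± 0.086 (limma, adjusted p = 2.9e-05), and a second probe gave 1.42. With normexp the first probe gave 1.03 and was not called (limma, adjusted p = 0.066). *Gls2*, a glutaminase, was higher by 0.97 ± 0.344 (limma, adjusted p = 0.042). Its level was 0.77 on S3d replicate 1, the array with the acinar signal, but -0.41 and -0.53 on the other arrays labelled S3d and between -1.07 and -0.97 on the arrays labelled control. The call was lost with quantile normalization (0.95, adjusted p = 0.051), median centring (0.76, adjusted p = 0.086), normexp (0.69, adjusted p = 0.21) and without the filter on dim probes (0.97, adjusted p = 0.061), all in limma. Without S3d replicate 1 its log2 fold change was 0.56 (limma, adjusted p = 0.002), while leaving out any 1 of the arrays labelled control kept the value between 0.94 and 0.99 and ended the call (adjusted p between 0.088 and 0.099).

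In the proline branch, which shares pyrroline-5-carboxylate with OAT, 3 of 6 genes were higher, 2 were lower and 1 was not called. *Aldh18a1* makes pyrroline-5-carboxylate from glutamate on the way to ornithine. It stood at 3.32, 3.55 and 3.74 against 4.11, 4.14 and 4.14, a log2 fold change of 0.59 ± 0.113 (limma, adjusted p = 0.0038). Of the genes that interconvert proline and pyrroline-5-carboxylate, *Prodh* and *Pycr1* were lower on their brightest probes and *Pycr3* was not called. *Prodh*, proline dehydrogenase, stood at 5.09, 4.90 and 4.76 against 2.88, 2.82 and 3.26, a log2 fold change of -1.93 ± 0.148 (limma, adjusted p = 8.1e-05). *Pycr1*, which makes proline, stood at 0.14, 0.06 and 0.14 against -1.28, -2.39 and -2.20, or -2.07 ± 0.286 (limma, adjusted p = 0.00093). The other probes of these genes differed less: 2 further *Prodh* probes gave -0.20, which was not called, and -0.52, and a dim *Pycr1* probe gave 0.24, not called. *Prodh2*, hydroxyproline dehydrogenase, was higher by 1.52 ± 0.357 (limma, adjusted p = 0.009) but lay near the dim end of the range, and with normexp its value was -0.17.

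Among 9 tested genes of citrulline, arginine and nitric oxide, 3 were higher, 4 were lower and 2 were not called. *Nos1* was not well above background on any array and was not tested. *Nos2*, the inducible nitric oxide synthase, which consumes arginine and gives citrulline back, had the largest difference of the list. Its levels were -2.07, -2.73 and -3.23 among the arrays labelled control and -5.46, -6.21 and -5.52 on the arrays labelled S3d. The latter lay at the dim end of the range, at raw signals of 33.2, 21.0 and 34.0, though well above background. The log2 fold change was -3.05 ± 0.343 (limma, adjusted p = 0.00038), and it was called with normexp too (-2.75, adjusted p = 0.019). *Nags*, which makes the activator that CPS1 requires, went against *Cps1*, at 3.01, 2.97 and 3.03 against 2.74, 2.61 and 2.71. Its log2 fold change of -0.32 ± 0.064 (limma, adjusted p = 0.0049) was smaller and not called with quantile normalization (-0.10) and turned to 0.22 with normexp, not called. *Slc25a15*, the carrier that brings ornithine into mitochondria, was higher by 0.49 ± 0.076 (limma, adjusted p = 0.0016), with levels of 1.43, 1.6 and 1.51 against 2.02, 2.08 and 1.93. *Arg1*, the liver-type arginase, was higher by 0.53 ± 0.109 (limma, adjusted p = 0.0051), at -0.01, -0.02 and -0.06 against 0.68, 0.53 and 0.29. *Gatm*, which starts creatine synthesis from arginine, stood at -3.73, -3.58 and -3.67 against -0.19, -2.22 and -2.70. Its highest value was on S3d replicate 1, the array with the acinar signal. The log2 fold change was 1.96 ± 0.633 (limma, adjusted p = 0.031) with that array and 1.20 (adjusted p = 0.0016) without it. Leaving out any 1 of the arrays labelled control ended the call, at values between 1.93 and 2.00 and adjusted p-values between 0.07 and 0.076 in limma.

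In the polyamine list, which continues from ODC1, 4 of 13 tested genes were higher, 4 were lower and 5 were not called. *Srm*, spermidine synthase, stood at 3.65, 3.37 and 3.29 against 2.11, 1.95 and 2.16, a log2 fold change of -1.36 ± 0.117 (limma, adjusted p = 0.00013). *Eif5a*, the translation factor that carries hypusine made from spermidine, stood at 6.32, 6.18 and 6.18 against 4.40, 4.31 and 4.48, or -1.83 ± 0.078 (limma, adjusted p = 1.6e-05). Both were also lower, and called, with quantile normalization (-1.14 and -1.33), and neither was called with normexp (-0.80 and -1.23). *Amd1*, which supplies the aminopropyl group, was lower by 0.40 on its brightest probe and by 0.43 on the other, a difference that quantile normalization brought to -0.09 and that was then not called. *Sms*, spermine synthase, was at the threshold (0.25 ± 0.094, adjusted p = 0.049, limma), and its call was lost when any 1 of the 6 arrays was left out (0.17 to 0.30, adjusted p between 0.051 and 0.13).

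The regulators of ODC1 did not move as a block. *Oaz1*, the antizyme that sends ODC1 to degradation, stood at 6.20, 6.03 and 6.07 against 5.78, 5.62 and 5.69, and its log2 fold change of -0.40 ± 0.077 (limma, adjusted p = 0.0037) turned to 0.24 with quantile normalization (adjusted p = 0.015). *Oaz2*, a second antizyme, gave 0.11 ± 0.1 and was not called (limma, adjusted p = 0.35), and its sign turned with quantile normalization (-0.02) and median centring (-0.09). *Azin1*, the antizyme inhibitor, which spares ODC1, stood at 1.89, 1.85 and 1.73 against 2.71, 2.71 and 2.68. Its log2 fold change was 0.88 ± 0.067 (limma, adjusted p = 8.3e-05), while its second probe gave 0.06 and was not called. With normexp the first probe gave 1.07 and was not called (limma, adjusted p = 0.068). Of the catabolic genes, *Sat2* was higher by 1.11 ± 0.076 (limma, adjusted p = 5.5e-05), but its call was lost with normexp (0.40, adjusted p = 0.37, limma). *Sat1*, the spermidine and spermine acetyltransferase, gave -0.12 ± 0.071 (adjusted p = 0.18), and *Smox*, spermine oxidase, gave -0.05 ± 0.107 (adjusted p = 0.68). Neither was called by limma, although *Sat1* was called higher with quantile normalization (0.22) and lower with median centring (-0.32).

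**Figure D4:**
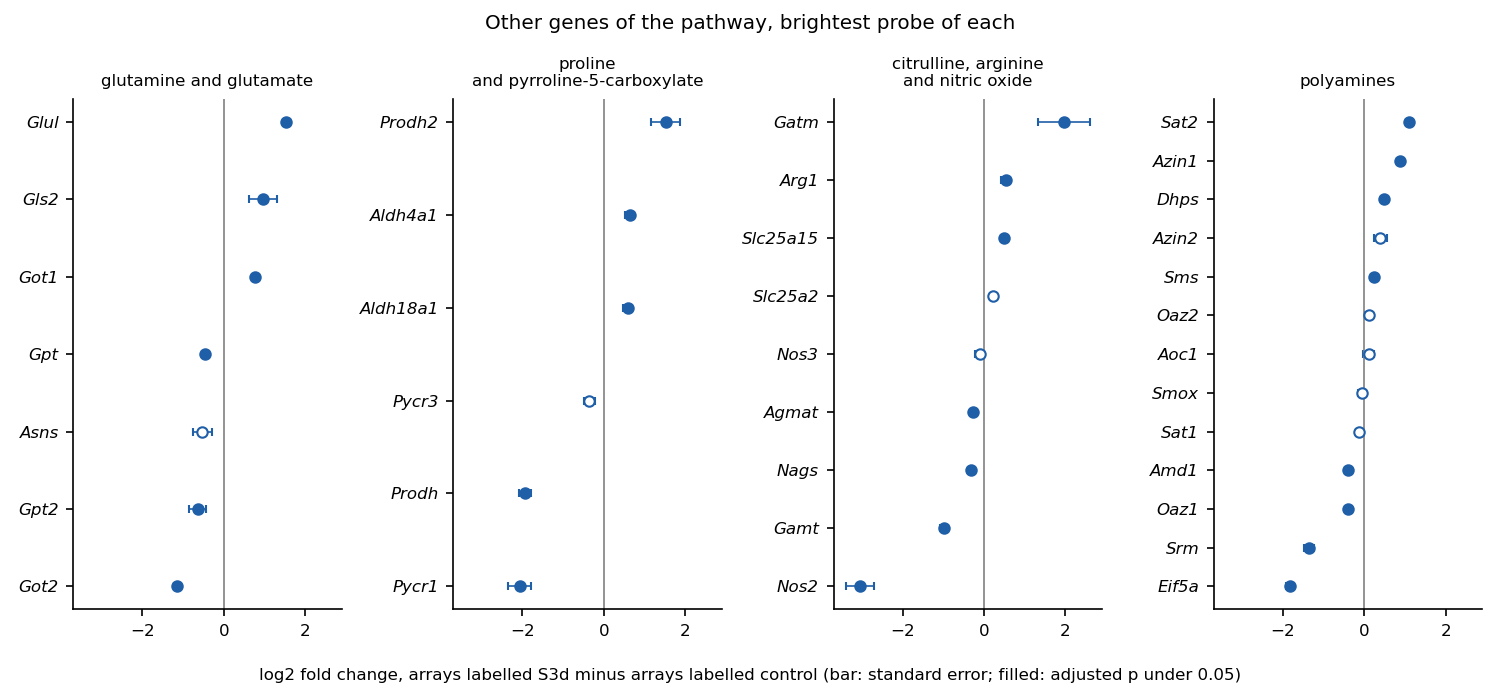
Log2 fold change (horizontal axis, arrays labelled S3d minus arrays labelled control) of the brightest probe of each tested gene of the pathway list, in 4 groups; bars are standard errors and filled points have an adjusted p under 0.05. Each group holds genes on both sides of 0, from *Nos2* at -3.05 to *Gatm* at 1.96, whose wide bar comes with its high value on S3d replicate 1.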

How the data were processed

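Intensity values were taken from the scanner output that the authors deposited for every array, as the processed signal of Agilent Feature Extraction 10.7.3.1, from which background had been subtracted and which had not been scaled across arrays. They also deposited 1 table of log2 values with quantile-normalized columns, used by its own labels as an alternative. The program that made it is not given in the sources used here.

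Control spots and outlier spots were left out, repeated spots were averaged, and log2 of the array's 75th percentile was subtracted. Of 41012 probes, the 31367 that stood well above background on every array of 1 or both groups entered lmFit and eBayes of limma 3.58.1 (R 4.3.3), with Benjamini-Hochberg adjustment over all tested probes. Within-array shifts were tested by exact permutation in Python 3.11.15. A gene is represented by its probe of highest mean signal. Probes were named through RefSeq accessions (GRCr8, names only): 20904 probes have one, and 17512 took a symbol. No spot was saturated, and between 69.1% and 81.5% of spots were well above background. The number of arrays limits the precision.

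On simulated data with 200 changed probes of 31137, the limma step recovered 148 in the right direction and made 8 false calls. The simulation held no shift of whole arrays, no trend with brightness and no scaling step. It therefore checks the fitting step only and does not measure false calls in these arrays. Named beside the members were 14 direct partners, the 5 largest rises and falls among called pathway genes, and the 2 closest profiles of each member. The members, lists and tests were chosen with earlier results of these data known. The shifts within arrays and the medians by signal were added after the values were seen. Normexp (offset 50) was planned on mean signals and used median signals, since the scanner files have no mean signal column. A slide block was not run, as no slide holds both groups. Of the pathway list, 6 genes had no named probe here, and 2 further genes first listed are not reported here and enter no count.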

Additional observations from a re-analysis of the deposited data

How the results depend on the processing

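The calls moved with the scaling and with the normexp setting, which differs in the signal it starts from (median signals) and its offset of 50 as well as in the background correction, so that these cannot be told apart. The cause of the moves was not tested. Among the members, 3 were called higher as reported, and 5 with quantile normalization, 8 without scaling, 1 with normexp and 1 in the normalized table by its own labels. None was called lower as reported, and 1 was with quantile normalization, 4 with median centring and 5 in the normalized table. Leaving out 1 array at a time kept 3 called higher and gave between 0 and 1 lower, the 1 being *Oat* without control replicate 1. Among the pathway genes 13 were called higher and 13 lower as reported. Without scaling these were 31 and 1, with normexp 0 and 2, and by one-way ANOVA (unadjusted p under 0.01, 1.5-fold or more) 6 and 7. Leaving out 1 array at a time gave between 10 and 12 higher and between 12 and 14 lower.

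Among the members and the genes named by the rule, the sign of several log2 fold changes turned. With quantile normalization this held for *Otc* (0.29), *Oat* (0.58), *Odc1* (0.23), *Oaz1* (0.24), *Oaz2* (-0.02) and *Sat1* (0.22). With normexp it held for *Otc* (0.31), *Asl* (-0.17), *Oat* (0.27), *Odc1* (0.47), *Nags* (0.22), *Oaz1* (0.09), *Oaz2* (-0.74), *Sms* (-0.54), *Amd1* (0.16), *Sat1* (0.40) and *Prodh2* (-0.17), and of these none was called. Without scaling, which leaves the brighter arrays higher, it held for *Otc* (1.79), *Ass1* (1.65), *Oat* (1.63), *Odc1* (1.75), *Nags* (1.53), *Oaz1* (1.44), *Srm* (0.49), *Amd1* (1.44), *Sat1* (1.73), *Smox* (1.79) and *Eif5a* (0.01). The mean over all probes gave 0.04 for *Oat* and 0.24 for *Odc1*, median centring gave -0.09 for *Oaz2*, and *Smox* lay between -0.10 and 0.05 when 1 array was left out, the latter without S3d replicate 2.

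The normalized table by its own labels, which are exchanged against those of the scanner files, gave *Cps1* -0.98, *Ass1* 0.33, *Asl* -1.01, *Arg2* -0.65 and the *Glud1* probes -1.10, -0.90 and -1.11. The dimmer probes of *Oat* and *Odc1* were at -0.38 and -0.85. Of the other genes it gave *Glul* -1.50, *Gls2* -0.95, *Nags* 0.09, *Aldh18a1* -0.95, *Slc25a15* -0.59, *Arg1* -0.55, *Nos2* 3.57, *Gatm* -1.76, *Pycr1* 2.13, *Prodh* 1.6 and *Prodh2* -1.33. In the polyamine list it gave *Azin1* -1.04, *Srm* 1.14, *Sms* -0.13, *Amd1* 0.09, *Smox* 0.19, *Eif5a* 1.33 and *Sat2* -1.05.

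With the replicate number as a block, 3 members were called higher and 0 lower, and 12 pathway genes higher and 12 lower, while 22211 probes were called in place of 23202. The labels only number the samples: deviations from the group means correlated at 0.02035, 0.02156 and -0.04914 between samples of the same number, so the numbers do not pair the samples. The call of *Gls2* was lost under the block (adjusted p = 0.056, limma) and by one-way ANOVA (adjusted p = 0.1). The other filters on dim probes, the outlier spots, an intensity trend and that ANOVA with Benjamini-Hochberg adjustment changed no call of a member.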
